A study of Mus musculus with 6 samples.

Results

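Deubiquitinases are the enzymes that remove ubiquitin from proteins. Here 54 genes with names of these families were followed through the quadriceps of mice with and without Klf15 in muscle. They were chosen by gene symbol (names beginning Usp, Otub, Otud or Uchl with their numbers, and Bap1 and Cyld, with Usp9x and Usp9y left out) and selected on a mean level of at least 1 FPKM over the 6 libraries. FPKM is a transcript level scaled by gene length and library size. Of 60 rows with such a name, 54 reached that mean, out of 23314 genes in all and 11607 at that level. The mean over the 6 libraries is thus what chose the genes, and Otud1 stands in the name of the group because its difference was already known. Of the 54, 4 (Usp39, Usp53, Usp54 and Usp6nl) were listed as inactive or not a deubiquitinase. They are kept under the group name.

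The libraries came from quadriceps, the thigh muscle that extends the knee, of mice aged 2 months. The control, MyoCre, carried 1 copy of Myogenin-Cre (Myogenin-Cre/+), a recombinase expressed from a gene of differentiating muscle cells. K15SKO mice (Myogenin-Cre/+;K15F/F) carried that Cre and were homozygous for K15F, the Klf15 allele that it deletes, so both groups share the Cre, and cells outside the muscle lineage keep Klf15. The comparison asks what loss of KLF15 in muscle does to transcript levels. There were 3 libraries a group, while the design text speaks of 4 mice. No label says that each library is a separate animal, and the p-values below therefore reflect only how far these libraries spread, which may be technical.

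Ubiquitin is a small protein that is joined to other proteins by ligases, singly or in chains, and marks them for the proteasome, for lysosomal sorting or for signalling. Deubiquitinases undo this by cutting the bond. The ubiquitin-specific proteases (USP) form the largest family, the ovarian tumour (OTU) enzymes are often choosy about the type of chain, and the ubiquitin C-terminal hydrolases (UCH) trim small adducts. In skeletal muscle, certain ubiquitin ligases drive loss of muscle mass, and the deubiquitinase Usp19 also has a known part in muscle wasting.

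Klf15, the targeted gene, measured 35.2, 28.4 and 30.5 FPKM across MyoCre 1 to 3, then 2.22, 21.7 and 5.32 FPKM across K15SKO 1 to 3. The K15SKO 2 value was 69.3% of the MyoCre mean. That library also had by far the highest hepatocyte marker sum (6092 FPKM), and cells outside the muscle lineage keep Klf15. Which cells its Klf15 came from was not tested. All 11 measured muscle fibre markers were above 0 in every library, with summed levels of 25152 to 31189 FPKM in MyoCre and 17768 to 32838 FPKM in K15SKO. The K15SKO libraries were unlike each other. Of 9 tested macrophage markers 1 stood higher at an unadjusted p under 0.05. The 12 in the file (1, Itgam, listed at 0 in one of its rows) summed to 45.7 to 56.2 FPKM in MyoCre and 437, 240 and 42.9 FPKM in K15SKO 1 to 3. Markers of satellite cells and regenerating fibres (6, none at 0; 3 of 4 tested stood higher) summed to 21.9, 11.4 and 10.9 FPKM against 63.8, 50.2 and 15.8 FPKM. Of 12 hepatocyte markers, 11 stood above every MyoCre library in all K15SKO libraries, although 6 were listed at 0 somewhere. The 12 summed to 27.9 to 69.1 FPKM in MyoCre and 75.8, 6092 and 18.7 FPKM in K15SKO 1 to 3. Most of the MyoCre sums was Cyp2e1, the marker that overlapped between groups. It had 32.1, 68.2 and 26.7 FPKM in MyoCre 1 to 3 and 4.95, 326 and 6.35 FPKM in K15SKO 1 to 3. The low sum of K15SKO 3 thus reflects Cyp2e1, while the other 11 lay above the controls there. Alb, the best known of the 12, was at most 1.13 FPKM in MyoCre, while K15SKO 1 to 3 had 21.1, 2203 and 4.36 FPKM. Adipocyte markers (7, none at 0; 5 of 6 tested stood lower) summed to 174 to 485 FPKM in MyoCre and 30.3 to 54.6 FPKM in K15SKO. Of all genes tested, 8.43% stood higher and 8.12% lower at an unadjusted p under 0.05. All K15SKO libraries lay above all MyoCre libraries for 13.4% of them. In bulk tissue, fewer cells of a type and less RNA per cell cannot be told apart. The part of these cells in the results below was not tested.

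None of the 54 genes passed the test of K15SKO against MyoCre (limma, adjusted p of 0.05 over 11607 genes), where 6 genes in all did, 0.0517% of those tested. At an unadjusted p under 0.05, 6 genes stood higher in K15SKO (Otud1, Uchl1, Uchl3, Uchl4, Usp11 and Usp28) and 6 lower (Otub2, Otud4, Usp32, Usp34, Usp38 and Usp45). Each is 11.1% of the 54, against 8.43% of all genes for higher and 8.12% for lower. All K15SKO libraries lay above all MyoCre libraries for 7 genes and below them for 7, 13.0% each, where 13.4% and 11.3% of all genes did so. These shares lie near the background. Usp11 reached the level threshold only through K15SKO, where it is high, so its selection favoured a difference. Among the 52 genes at 1 FPKM or more in both groups, 5 stood higher and 6 lower at that p, and 6 and 7 did not overlap. Differences of at least 1 on the log2 scale were found for 2 genes, Otud1 and Uchl1, or 3.70% of the 54 against 4.99% of all genes. The median log2 difference was −0.05, beside −0.02 for all genes, on the log2(FPKM + 1) scale used throughout, which understates the change of low genes. The sum over the 54 genes was 831, 832 and 899 FPKM in MyoCre 1 to 3 and 857, 821 and 948 FPKM in K15SKO 1 to 3, with overlap between the groups.

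**Figure D1:**
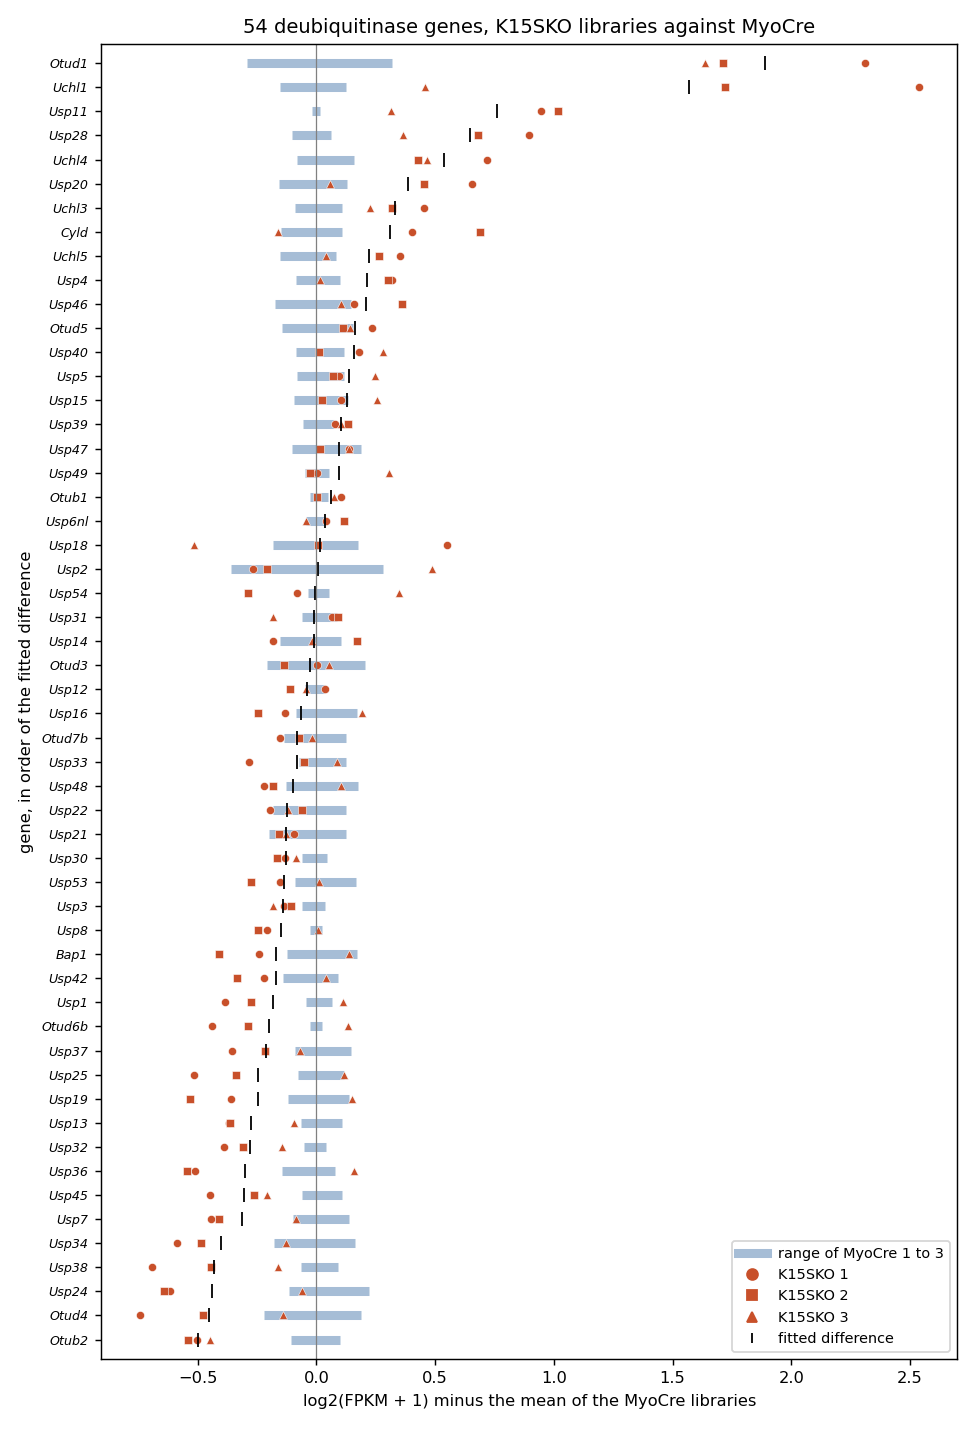
All 54 genes in order of their fitted difference. The horizontal axis is log2(FPKM + 1) minus the MyoCre mean, blue bars span MyoCre 1 to 3, orange symbols are the K15SKO libraries and black ticks the fitted differences; Otud1 and Uchl1 lie farthest to the right, and K15SKO 3 (triangles) is often nearer the bars than K15SKO 1 and 2.

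Otud1 encodes an OTU enzyme reported to act on regulators of TGF-beta, p53 and interferon signalling. The gene is a single exon at chr2:19657752-19660583 (GRCm38, plus strand), and no exon of another GENCODE gene overlaps it. MyoCre 1 to 3 had 7.98, 9.79 and 12.7 FPKM of Otud1, where K15SKO 1 to 3 had 53.6, 35.0 and 33.2 FPKM. The lowest K15SKO library stood well above the highest MyoCre library. The means were 40.6 ± 11.3 against 10.2 ± 2.39 FPKM (SD, n = 3 each), a ratio of 4.00. The log2 difference was 1.89 (SE 0.23, limma adjusted p = 0.153), so it did not pass, and p was 0.1 in an exact permutation test (two-sided), the smallest that 3 against 3 allows. Since Otud1 was picked for this difference, these values describe it and support nothing further. Among the 54 genes it ranked 24 by its mean in MyoCre and 6 in K15SKO.

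The order of Otud1 over K15SKO 1 to 3 is also that of the macrophage sums, 437, 240 and 42.9 FPKM. Regenerating fibre sums (63.8, 50.2 and 15.8 FPKM) and fibroblast marker sums (331, 234 and 161 FPKM) fell in that order too. The hepatocyte sum did not, being highest in K15SKO 2. In K15SKO 3 Otud1 was at 33.2 FPKM, while the macrophage sum lay below that of every MyoCre library. The part of macrophages and of other cell types in the Otud1 level was not tested. K15SKO 2, the library with the most Klf15 and the most Alb of the group, had 35.0 FPKM. Without K15SKO 3 the Otud1 difference was 2.01 (limma adjusted p = 0.0113). With array weights, which give less weight to libraries that fit the group means less well, it was 1.93 (adjusted p = 0.0201). The other alternatives left it above 0.05, and its adjusted p ranged from 0.0113 to 0.581 over 17 alternatives. Its log2 difference ranged from 1.68 to 2.05.

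The start-site region of Otud1 is shown because Klf15 belongs to a family of zinc-finger factors that bind GC-rich and CACCC-type DNA. Regions of 300 bases, 250 before and 50 after the RefSeq start (GRCm38.p6), were searched on both strands for CACCC and GGGCGG. Capitals mark CACCC or its complement GGGTG, and GGGCGG or its complement CCGCCC. Usp28 and Otub2 are shown beside it as the spliced genes with the smallest p in the higher and the lower direction that have no near-identical copy, each at one of its annotated starts. Otud1 is chr2:19657481-19657780, Usp28 chr9:48985135-48985434 and Otub2 chr12:103388431-103388730, all on the plus strand.
Otud1: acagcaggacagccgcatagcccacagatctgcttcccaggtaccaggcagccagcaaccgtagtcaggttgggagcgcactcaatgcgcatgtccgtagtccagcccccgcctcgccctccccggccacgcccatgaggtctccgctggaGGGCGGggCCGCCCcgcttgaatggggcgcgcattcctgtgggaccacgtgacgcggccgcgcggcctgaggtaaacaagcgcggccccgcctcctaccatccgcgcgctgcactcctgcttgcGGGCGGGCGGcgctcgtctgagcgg
Usp28: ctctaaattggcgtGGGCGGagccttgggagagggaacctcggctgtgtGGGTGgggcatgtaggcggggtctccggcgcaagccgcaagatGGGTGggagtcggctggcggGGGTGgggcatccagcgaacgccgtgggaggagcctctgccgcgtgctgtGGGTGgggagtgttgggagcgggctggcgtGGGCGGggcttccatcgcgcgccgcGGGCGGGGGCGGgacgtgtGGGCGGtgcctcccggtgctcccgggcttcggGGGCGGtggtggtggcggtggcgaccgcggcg
Otub2: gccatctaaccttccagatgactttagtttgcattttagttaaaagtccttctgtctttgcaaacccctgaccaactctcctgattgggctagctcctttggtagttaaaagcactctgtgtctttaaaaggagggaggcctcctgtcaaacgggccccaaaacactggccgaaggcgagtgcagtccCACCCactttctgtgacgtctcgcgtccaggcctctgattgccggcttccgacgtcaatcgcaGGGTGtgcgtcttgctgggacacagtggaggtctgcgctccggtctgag

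The Otud1 region held 4 GGGCGG matches, 2 of which overlap each other, and 0 CACCC matches, with a GC content of 70.3%. Usp28 held 6 GGGCGG and 4 CACCC matches at a GC content of 74.7%. Otub2 held 0 GGGCGG and 2 CACCC matches at 53.7%. Among 32851 such regions in the RefSeq table, 35.7% held GGGCGG, 57.5% held CACCC, 5.49% held at least 4 GGGCGG matches, and the median GC content was 52.7%. A match is a string of letters and no measured site. The table matched 43 of the 54 genes by symbol, under the 80% needed for a share over the group, so none is given.

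The OTU family had 8 of its genes among the 54. Otud1 made up 6.95%, 8.20% and 9.74% of their summed FPKM in MyoCre 1 to 3 but 36.0%, 26.6% and 22.8% in K15SKO 1 to 3. The other 7 together measured 107, 110 and 118 FPKM across MyoCre 1 to 3, then 95.2, 96.5 and 113 FPKM across K15SKO 1 to 3, so the groups overlapped once Otud1 was set aside.

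Otub2, an OTU enzyme related to Otub1, measured 9.27, 8.48 and 9.95 FPKM across MyoCre 1 to 3, then 6.20, 6.02 and 6.48 FPKM across K15SKO 1 to 3. All K15SKO libraries lay below all MyoCre libraries, and they agreed closely with each other. Its log2 difference was −0.50 (SE 0.09, limma adjusted p = 0.248), and its unadjusted p stayed under 0.05 in 17 of 17 alternatives. Otub1, which also blocks certain ubiquitin-conjugating enzymes without cutting, held a narrow range: 23.7 to 25.0 FPKM in MyoCre and 24.2 to 26.0 FPKM in K15SKO. The ratio of Otub2 to Otub1 was 0.390, 0.340 and 0.421 in MyoCre and 0.239, 0.249 and 0.254 in K15SKO, again with no overlap, and Otub1 itself differed by 0.06 (SE 0.09).

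Otud4, a scaffold as well as an enzyme, measured 12.7, 15.4 and 17.3 FPKM across MyoCre 1 to 3, then 8.58, 10.5 and 13.6 FPKM across K15SKO 1 to 3. Its groups overlapped through MyoCre 1 and K15SKO 3 (limma adjusted p = 0.301). Otud6b measured 30.3, 31.4 and 30.9 FPKM across MyoCre 1 to 3, then 22.5, 25.1 and 34.0 FPKM across K15SKO 1 to 3, so K15SKO 3 lay on the other side of the controls from K15SKO 1 and 2. Otud3, Otud5 and Otud7b overlapped between groups, with log2 differences of −0.03, 0.16 and −0.08.

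**Figure D2:**
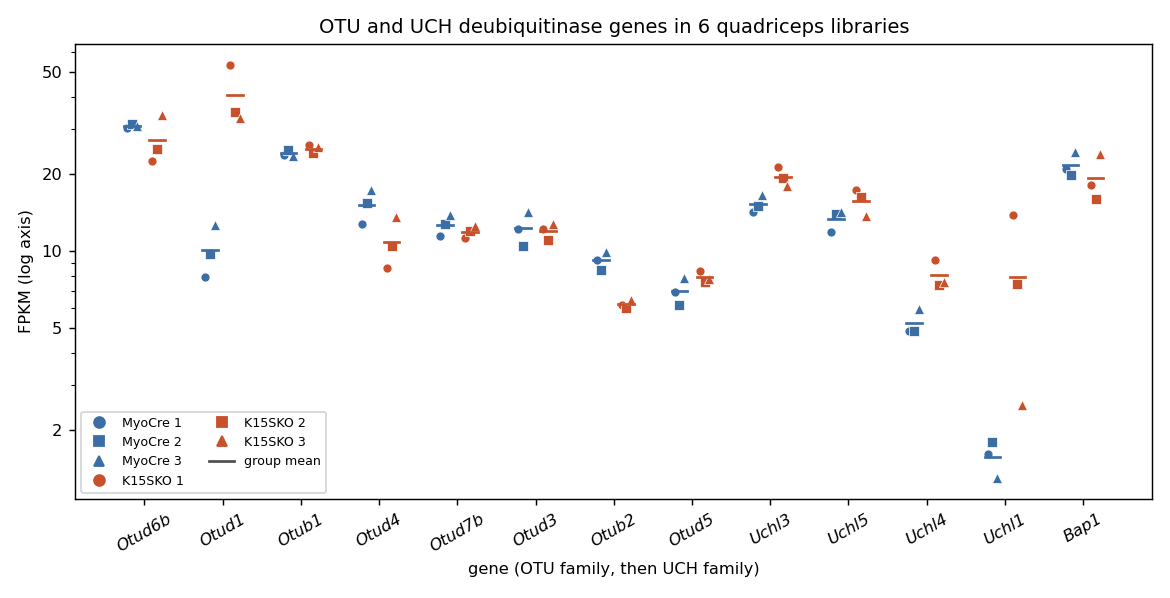
FPKM (log axis) of the 8 OTU genes and, to their right, the 4 Uchl genes and Bap1. Symbols are single libraries and bars are group means; Otud1 lies at 7.98 to 12.7 FPKM in MyoCre and 33.2 to 53.6 FPKM in K15SKO, while Otub1 keeps to 23.7 to 26.0 FPKM in all 6 libraries.

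Of the 5 UCH genes, 3 (Uchl1, Uchl3 and Uchl4) stood higher at an unadjusted p under 0.05, 0 stood lower and 0 passed after adjustment, where 8.43% of all genes stood higher. Uchl3 and Uchl4 are near-identical copies, so their calls are not separate. Uchl1, a hydrolase best known as an abundant protein of neurons, measured 1.62, 1.79 and 1.30 FPKM across MyoCre 1 to 3, then 13.9, 7.44 and 2.52 FPKM across K15SKO 1 to 3. K15SKO 1 was several times K15SKO 3, and the spread within K15SKO (a coefficient of variation of 71.6%) was the widest of the 54 genes. Its means were 7.94 ± 5.69 against 1.57 ± 0.250 FPKM (SD, n = 3 each), with a log2 difference of 1.57 (SE 0.49, limma adjusted p = 0.272). The order of its K15SKO libraries is also that of the macrophage sums, 437, 240 and 42.9 FPKM. Regenerating fibre sums, 63.8, 50.2 and 15.8 FPKM, fell in that order too. So did the sums of 6 fibroblast markers, 331, 234 and 161 FPKM, against 176 to 200 FPKM in MyoCre. Of those 6, however, 2 (Dcn and Pdgfra) were lower in K15SKO without overlap. The part of these cell types in the Uchl1 level was not tested. Schwann cell markers (6) summed to 21.3, 17.4 and 44.7 FPKM in K15SKO 1 to 3 against 30.3 to 38.9 FPKM in MyoCre; their part was not tested either. Without K15SKO 3 the Uchl1 difference was 2.13 (adjusted p = 0.0106), and without K15SKO 1 it was 1.09, the smallest over its alternatives. An antisense gene, Uchl1os, shares 295 exon bases with it, and its value is uncertain to that extent because strandedness is not given.

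Uchl3 measured 14.3, 15.1 and 16.5 FPKM across MyoCre 1 to 3, then 21.3, 19.3 and 18.0 FPKM across K15SKO 1 to 3. Uchl4, a single-exon copy of it, measured 4.87, 4.91 and 5.94 FPKM across MyoCre 1 to 3, then 9.24, 7.36 and 7.60 FPKM across K15SKO 1 to 3. Neither overlapped between groups, and K15SKO stood higher by 0.33 and 0.54 on the log2 scale (limma adjusted p of 0.275 and 0.251). The best alignment of their annotated transcripts matched 97.5% of 849 bases, so reads of one could be counted to the other and the Uchl4 value in particular is uncertain. Uchl5, which sits on the proteasome, measured 11.9, 14.1 and 14.2 FPKM across MyoCre 1 to 3, then 17.3, 16.3 and 13.8 FPKM across K15SKO 1 to 3, with K15SKO 3 inside the control range. Bap1, the nuclear member that removes ubiquitin from histone H2A, was at 21.0, 19.8 and 24.5 against 18.2, 16.1 and 24.0 FPKM.

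Among the 40 Usp genes, 2 stood higher at an unadjusted p under 0.05 and 4 lower, against 8.43% and 8.12% of all genes. The 2 were Usp28 and Usp11. Usp11 reached the level threshold only through K15SKO, a selection that favours such a call, so its call supports nothing. Usp28, a nuclear enzyme known for stabilising Myc, measured 20.3, 18.3 and 20.6 FPKM across MyoCre 1 to 3, then 37.4, 32.2 and 25.7 FPKM across K15SKO 1 to 3. Each K15SKO library exceeded each MyoCre library, with K15SKO 3 nearest to them. The log2 difference was 0.65 (SE 0.15, limma adjusted p = 0.256).

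Usp25, the closest relative of Usp28 and the source of a muscle-specific isoform, measured 38.6, 37.5 and 43.0 FPKM across MyoCre 1 to 3, then 27.5, 31.2 and 43.1 FPKM across K15SKO 1 to 3. K15SKO 1 and 2 lay below the controls, and K15SKO 3 just above them. The ratio of Usp28 to Usp25 was 0.524, 0.487 and 0.478 in MyoCre but 1.36, 1.03 and 0.596 in K15SKO, so Usp28 was the more abundant of the pair in K15SKO 1 and 2 only. This pair was set side by side after its values were seen. FPKM covers all isoforms of a gene, and the muscle isoform of Usp25 was not analysed here.

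Usp11, a relative of Usp4 and Usp15 that acts in DNA repair, measured 0.497, 0.505 and 0.473 FPKM across MyoCre 1 to 3, then 1.87, 2.02 and 0.857 FPKM across K15SKO 1 to 3. It reached the mean of 1 FPKM only through K15SKO. Of the 54 genes, 52 had a MyoCre mean of at least 1 FPKM, the other one being Usp6nl at 0.991 FPKM. Its log2 difference of 0.76 (SE 0.23) is given as a description for that reason, with no test. Its K15SKO spread (a coefficient of variation of 40.0%) was among the 3 widest. K15SKO 3 was lowest of its group in Usp11 and in the macrophage sum alike, and the part of macrophages in the Usp11 level was not tested. The relatives were far more abundant. Usp4 stood at 34.8 ± 2.33 FPKM in MyoCre and 40.6 ± 4.75 FPKM in K15SKO, and Usp15 at 44.9 ± 3.87 and 49.2 ± 4.11 FPKM (SD, n = 3 each).

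Usp38 measured 11.3, 12.8 and 11.7 FPKM across MyoCre 1 to 3, then 6.99, 8.48 and 10.5 FPKM across K15SKO 1 to 3. Usp45, which acts on a DNA repair nuclease, was at 5.81, 6.66 and 5.89 against 4.21, 4.93 and 5.16 FPKM. Usp32, a membrane-bound enzyme of the Golgi and late endosomes, was at 3.39, 3.59 and 3.68 against 2.48, 2.67 and 3.11 FPKM. In these 3 genes every K15SKO library lay below every MyoCre library. Usp34, known for acting on axin in Wnt signalling, overlapped at 7.06, 8.25 and 9.21 against 5.07, 5.51 and 7.36 FPKM. Log2 differences of the 4 ran from −0.43 to −0.28 (limma adjusted p = 0.279 to 0.292). Exons on the opposite strand overlap Usp38 (1174 bases of Gm9725), Usp34 (2137 bases of Ahsa2) and Usp45 (57 bases of Tstd3), so part of their signal may belong to those genes. In all, 17 of the 54 genes share exon bases with another gene.

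**Figure D3:**
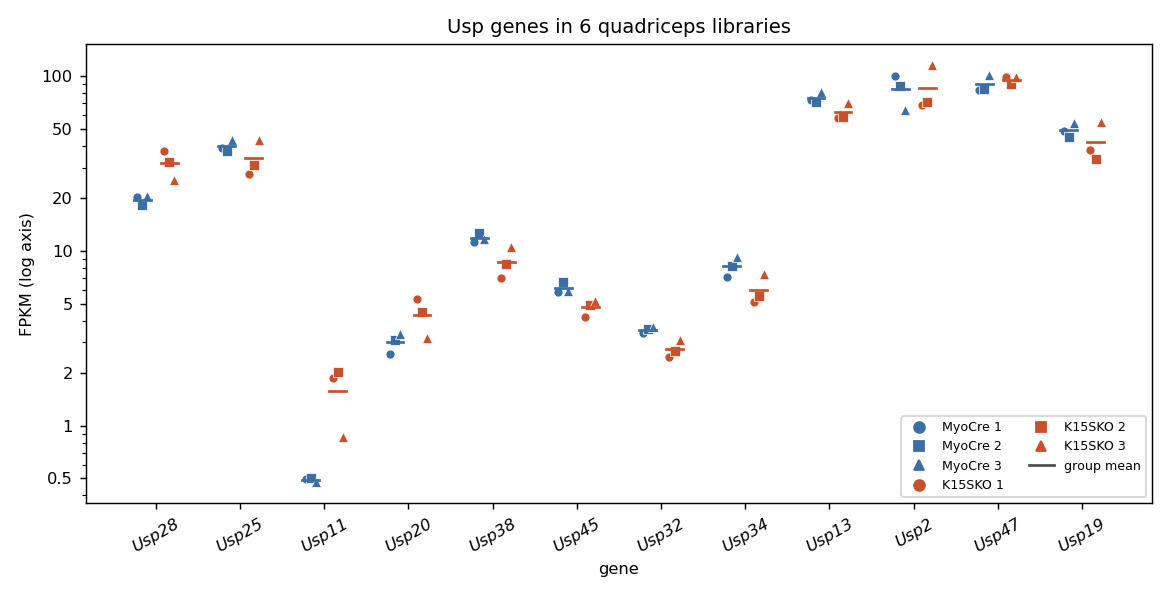
FPKM (log axis) of 12 Usp genes: those named for a low p or a high level, with Usp25 and Usp20. Symbols are libraries and bars are group means; Usp28 lies above its MyoCre values in all 3 K15SKO libraries, whereas Usp25 is below them in K15SKO 1 and 2 and level with them in K15SKO 3.

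The 5 most abundant of the 54 genes were Usp47, Usp2, Usp13, Usp15 and Usp19, at means of 92.8, 84.7, 68.6, 47.1 and 45.6 FPKM over the 6 libraries. They made up 39.0% to 41.8% of the summed FPKM in MyoCre and 36.3% to 41.5% in K15SKO. Usp47, an enzyme of base excision repair, measured 83.3, 84.2 and 102 FPKM across MyoCre 1 to 3, then 98.4, 90.4 and 98.6 FPKM across K15SKO 1 to 3 (log2 difference 0.10, SE 0.12). Usp2, whose transcript follows the circadian clock in many tissues, measured 100.5, 87.5 and 64.2 FPKM across MyoCre 1 to 3, then 68.6, 71.5 and 116 FPKM across K15SKO 1 to 3. Both groups of Usp2 were spread widely and overlapped, with a log2 difference of 0.00 (SE 0.26).

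Usp13, a relative of Usp5 that is abundant in skeletal muscle, measured 72.8, 71.7 and 80.9 FPKM across MyoCre 1 to 3, then 57.9, 58.2 and 70.2 FPKM across K15SKO 1 to 3. The groups did not overlap, and the log2 difference was −0.28 (SE 0.12, limma adjusted p = 0.315, unadjusted 0.0658). Usp5, which takes apart free ubiquitin chains, stood at 21.0 ± 1.60 against 23.2 ± 1.64 FPKM (SD, n = 3 each). The Usp13 to Usp5 ratio was 3.57, 3.62 and 3.55 in MyoCre and 2.58, 2.64 and 2.80 in K15SKO. That pair, too, was compared after its values were seen. Usp19, an enzyme with a form anchored in the endoplasmic reticulum and a known part in muscle wasting, measured 48.4, 45.1 and 54.1 FPKM across MyoCre 1 to 3, then 38.0, 33.6 and 54.6 FPKM across K15SKO 1 to 3. Usp14, which trims chains at the proteasome, had means of 25.5 ± 2.44 and 25.3 ± 3.27 FPKM (SD, n = 3 each) and a log2 difference of −0.01 (SE 0.13). It shares 2169 exon bases with Thoc1 on the opposite strand, so part of its signal may belong to Thoc1.

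Among genes of inflammatory and interferon signalling, 0 of 9 stood higher and 1 (Otub2) lower at an unadjusted p under 0.05, with a median log2 difference of 0.06. Of all genes tested, 8.43% stood higher and 8.12% lower. Cyld, which removes chains that activate NF-kB, measured 6.37, 7.80 and 7.43 FPKM across MyoCre 1 to 3, then 9.81, 12.2 and 6.31 FPKM across K15SKO 1 to 3. Usp18, which removes the ubiquitin-like protein Isg15, was at 1.42, 2.11 and 1.77 against 3.02, 1.76 and 0.924 FPKM. Both were lowest in K15SKO 3, where the macrophage sum was also lowest. Usp18 was highest in K15SKO 1, as that sum was, but lay inside the MyoCre range in K15SKO 2. Cyld was highest in K15SKO 2. How far macrophages account for this was not tested. Usp18 had the second widest spread in K15SKO, a coefficient of variation of 55.5%.

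The histone and chromatin genes (8 measured at this level) had 0 members at an unadjusted p under 0.05 and a median of −0.13. For this and the next lists, 8.43% of all genes tested stood higher and 8.12% lower. Usp7, which stabilises p53 and its ligase, was at 17.7, 18.4 and 21.0 against 13.7, 14.1 and 17.8 FPKM, and Usp3, a histone enzyme, at 4.85, 4.53 and 4.91 against 4.24, 4.34 and 4.08 FPKM, without overlap. The Wdr48-dependent enzymes Usp1, Usp12 and Usp46, which need that partner for full activity, had 0 of 3 in either direction and a median of −0.04. Of 5 genes of endosome and membrane traffic, 1 (Usp32) stood lower. Usp20, in this list, was at 2.58, 3.09 and 3.37 against 5.30, 4.47 and 3.16 FPKM, with K15SKO 3 among the controls. Usp30, anchored in the outer mitochondrial membrane, was at 3.12, 2.82 and 3.05 against 2.65, 2.56 and 2.76 FPKM, a small difference without overlap (−0.13, SE 0.10). Usp39, a splicing protein without deubiquitinase activity, stood at 11.1 ± 0.575 against 12.0 ± 0.241 FPKM (SD, n = 3 each). The 11 genes in none of these lists had log2 differences of −0.44 (Usp24) to 0.76 (Usp11).

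At the threshold of 1 FPKM, the genes just inside were Usp6nl, Usp11 and Usp49 at means of 1.02, 1.04 and 1.23 FPKM. Usp6nl matches by name but encodes a Rab GTPase-activating protein. Usp49 shares 4392 of its 8581 exon bases with Gm20517 on the same strand, so its level and its place above the threshold are uncertain. Just outside were Usp35, Usp44 and Usp27x at 0.475, 0.151 and 0.0937 FPKM. The other rows under it, Usp43, Usp29 and Otud7a, had means of 0.0127 to 0.0871 FPKM.

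The K15SKO libraries differed in how far they stood from the controls. K15SKO 1 lay outside the range of MyoCre 1 to 3 for 45 of the 54 genes (83.3%), K15SKO 2 for 40 (74.1%) and K15SKO 3 for 31 (57.4%). Among all genes tested the shares were 80.4%, 77.2% and 61.4%, close to these. K15SKO 1 was above that range for 17 genes and below it for 28 (37.2% and 43.2% of all genes were), and K15SKO 2 for 15 and 25 (33.4% and 43.8%). K15SKO 3 turned the balance, with 20 above and 11 below (36.1% and 25.3%). The libraries of K15SKO thus spread more than those of MyoCre: the coefficient of variation was larger in K15SKO for 41 of the 54 genes, at a median of 13.7% against 9.23%. Over all 11607 genes tested it was larger in K15SKO for 8847, a like share, and the medians were 18.7% and 9.81%.

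With K15SKO 3 left out, a choice for which the labels give no ground, limma called 19 of the 54 genes, 8 higher and 11 lower. That is 14.8% and 20.4% of them, where 10.8% and 12.8% of all genes were called. Of the 52 genes at 1 FPKM or more in both groups, 7 were called higher and 11 lower. The 8 were Otud1, Uchl1, Usp11, Usp28, Uchl4, Uchl3, Usp20 and Cyld. The 11 were Usp13, Usp19, Usp25, Usp24, Usp7, Usp34, Usp36, Usp38, Otud4, Otud6b and Otub2. K15SKO 3, which had no part in those calls but is read against the same MyoCre libraries, lay beyond the controls on the same side for 9 of the 19 genes (Otud1, Uchl1, Uchl3, Uchl4, Usp11, Usp28, Otub2, Usp13 and Usp38), or 8 without Usp11. It lay within their range for 5 (Usp7, Usp20, Usp24, Usp34 and Otud4) and on the opposite side for 5 (Usp19, Usp25, Usp36, Otud6b and Cyld). Over all 2743 genes called without it, the shares were 45.4%, 33.0% and 21.6%, against 47.4%, 26.3% and 26.3% for the 19.

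The number of genes that stood lower moved with single libraries. At an unadjusted p under 0.05 it was 6 with all libraries and 1 without MyoCre 2, MyoCre 3, K15SKO 1 or K15SKO 2, that 1 being Otub2 each time. It was 3 without MyoCre 1 and 16 without K15SKO 3. Over all genes, those at that p in either direction numbered 1920 with all libraries, 902 to 1293 without one of those 5 libraries and 4778 without K15SKO 3, so calls became fewer or more in the whole table too. The number higher ran from 5 to 10, with 10 reached without K15SKO 3.

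**Figure D4:**
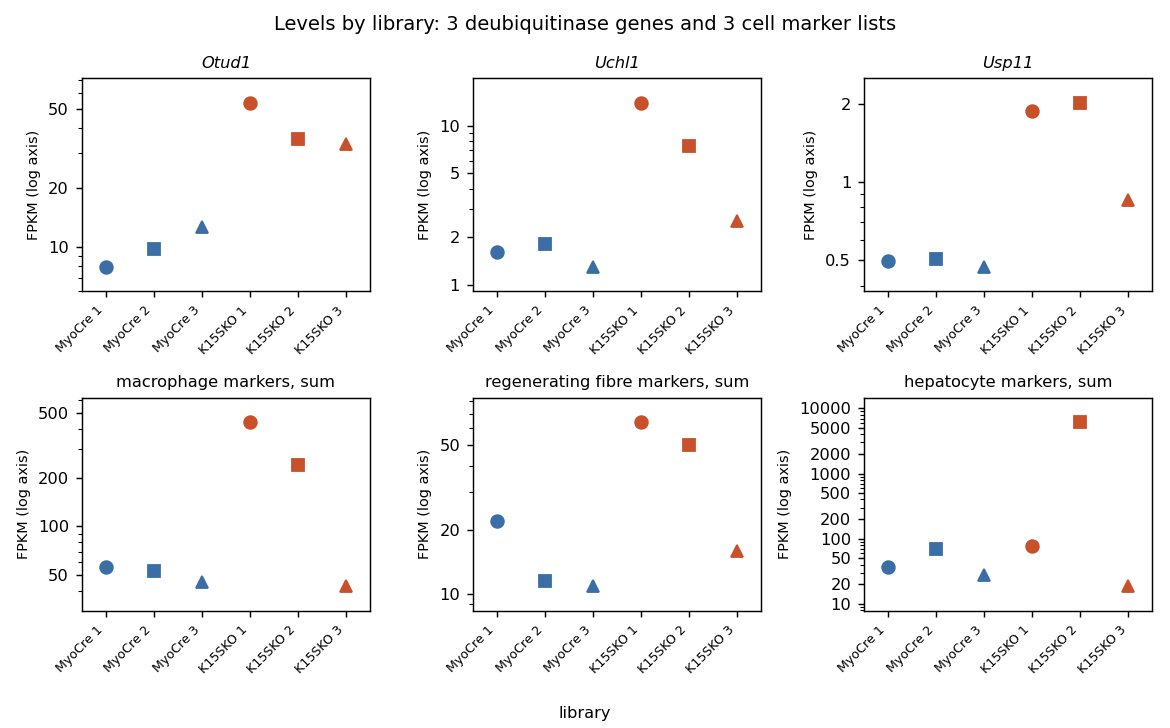
Otud1, Uchl1 and Usp11 (top) and the summed markers of macrophages, of satellite cells with regenerating fibres, and of hepatocytes (bottom) in each library, as FPKM on log axes. K15SKO 3 is the lowest K15SKO library in all 6 panels, with Otud1 at 33.2 FPKM, Uchl1 at 2.52 FPKM and the macrophage sum at 42.9 FPKM. K15SKO 2 stands apart in the hepatocyte sum, which in MyoCre is mostly Cyp2e1.

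Other genes of the ubiquitin system were described from 5 lists, and 0 of their tested members passed after adjustment. Among 24 tested deubiquitinases of other families or names, 2 stood higher at an unadjusted p under 0.05 and 0 lower, with a median log2 difference of −0.04. Of all genes tested, 8.43% stood higher and 8.12% lower, so the 2 are near the background. Otulin, the OTU enzyme that cuts linear ubiquitin chains, measured 9.50, 9.06 and 10.9 FPKM across MyoCre 1 to 3, then 28.9, 25.6 and 15.8 FPKM across K15SKO 1 to 3. Its groups did not overlap, and it differed by 1.13 (SE 0.22, limma adjusted p = 0.248). Psmd14, the deubiquitinase subunit of the proteasome lid, was at 36.4, 41.1 and 41.1 against 61.0, 60.0 and 41.3 FPKM, and Cops6, of the COP9 signalosome, at 68.0, 66.6 and 72.7 against 77.2, 85.4 and 84.8 FPKM. The ligase complex that builds linear chains (Rnf31, Rbck1 and Sharpin) had 0 of 3 in either direction and a median of 0.18.

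Partner proteins of deubiquitinases had 1 of 22 higher and 4 lower (median −0.06), where 8.43% and 8.12% of all genes stood so. Wdr20, a cofactor of Usp12 and Usp46, was the higher one, at 5.94, 6.34 and 5.91 against 9.10, 8.35 and 6.49 FPKM. The lower ones were Mbd5, Foxk1 and Foxk2, of complexes with Bap1, and Atxn7, of the module that holds Usp22. Mbd5 stood at 3.95, 4.41 and 4.72 against 2.86, 2.96 and 3.34 FPKM. Of 7 genes for ubiquitin and its activating enzymes, 1 (Rps27a) stood higher and 0 lower (median 0.08). Ubb, which encodes a chain of ubiquitin units, was at 227, 218 and 286 FPKM in MyoCre against 109, 137 and 236 FPKM in K15SKO. Its groups overlapped, with K15SKO 1 and 2 low and K15SKO 3 inside the MyoCre range. Rps27a has near-identical copies in the genome and its level of 3.33 to 8.61 FPKM is uncertain. Of 6 transcripts whose proteins are reported substrates of OTUD1 (Smad7, Trp53, Yap1, Keap1, Irf3 and Mcl1), 0 stood higher or lower at that p, with a median of 0.12. Trp53 was at 7.55, 7.30 and 7.02 against 12.4, 11.2 and 7.02 FPKM.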

How the data were processed

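The authors deposited 1 matrix of FPKM for 23314 genes in 6 libraries. The tools named, per the submitters' processing notes, are Cufflinks, Cuffdiff and STAR, with the mm10 build; no source used here gives versions, strandedness or the FPKM unit itself, which is read from those tools and the values. FPKM keeps no counts. Relative depth was estimated from 371 genes above 0 and under 0.1 FPKM in every library, as the inverse of their most common ratio to MyoCre 1. By this estimate, MyoCre 2 and 3 were 1.07 and 1.32 times as deep as MyoCre 1. K15SKO 1 to 3 were 0.758, 1.57 and 0.933 times as deep. The depth itself is unknown and counting intervals are left out.

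limma's model was fitted to log2(FPKM + 1) of genes with a mean of 1 FPKM or more (limma 3.58.1 in R 4.3.3; eBayes with trend, two-sided, Benjamini-Hochberg over 11607 genes, threshold 0.05). Column names were matched to samples through the labels, leaving 0 unmatched. Gene positions came from GENCODE M21 on GRCm38 (54 of 54 matched) and start-site regions from RefSeq (GRCm38.p6). Older symbols were matched for Zup1 and Mindy1 to Mindy4. Python 3.11.15, pandas 2.3.3, scipy 1.17.1 and matplotlib 3.10.9 made the tables and plots. The fit was tested on simulated data.

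The genes and lists were chosen with earlier results of these data known. Named are Otud1; up to 10 genes a direction with the smallest unadjusted p under 0.05; the 5 most abundant; those nearest the level threshold; the 3 with the widest K15SKO spread; up to 3 a list with the smallest p; and Klf15. Genes named to fill out a role or a pair were chosen after their values were seen. The fit was repeated with each library left out, array weights, a replicate block, robust or untrended eBayes, quantile or median-of-ratios scaling, a pseudocount of 0.5 or 0.1, all genes, and only genes with a mean of 5 FPKM or more. The fit without genes at 0 in a whole group was added after seeing the data. Myh4, Ckm and Acta1 were not analysed here.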

Additional observations from a re-analysis of the deposited data

How the results depend on the processing

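Over the 17 alternatives, the 12 genes with an unadjusted p under 0.05 kept their direction wherever they were tested (201 values), and 18 of those values passed the adjusted threshold, all with array weights or without K15SKO 3. Uchl1, Usp11 and Usp32 leave the table when a mean of at least 5 FPKM is asked for. Genes past the threshold numbered 3 with no filter, 2398 with array weights, 0 with genes at 0 in a whole group left out (limma; 1930 at an unadjusted p under 0.05), and 3 to 2743 with 1 library left out, against 6. Deubiquitinase genes past it numbered 12 with array weights and 0 to 19 with 1 library left out, against 0 (limma, with 12 at an unadjusted p under 0.05). Of the 54, those higher at an unadjusted p under 0.05 numbered 11 with array weights and 5 to 10 with 1 library left out. Those lower numbered 15 and 1 to 16. Among all 11607 genes tested, 4790 were at that p in either direction with array weights, against 1920 in the main fit. With 1 library left out they numbered 902 to 4778. The counts of deubiquitinase genes rose with array weights and without K15SKO 3, where those of all genes rose too. The cause was not tested.

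The replicate numbers are not stated to pair the libraries. With the replicate block 3 genes and 0 deubiquitinase genes passed. Deviations from the group means correlated across genes at 0.0024, 0.0851 and 0.0942 for numbers 1 to 3, and MyoCre 1 correlated best with K15SKO 2 (0.00659), not with its own number. With 3 libraries a group and no counts, a difference that misses the threshold is not shown to be absent.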
